A study of Arabidopsis thaliana with 6 samples.

Results

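The circadian clock genes described here are 10 loci of Arabidopsis thaliana: the MYB-like transcription factor genes CCA1 (AT2G46830), LHY (AT1G01060), RVE1 (AT5G17300), RVE2 (AT5G37260), RVE4 (AT5G02840), RVE7 (AT1G18330) and RVE8 (AT3G09600), and the LNK genes LNK1 (AT5G64170), LNK2 (AT3G54500) and LNK3 (AT3G12320). They were picked by locus, through the RefSeq transcript that each array probe names, with earlier results of these data known. They are 10 of 21300 genes measured and are read by 17 of 43603 probes. In the gene table RVE4 is listed as LCL1, RVE7 as EPR1 and the LNK genes by locus.

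The tissue was shoot apical meristem with juvenile leaves, taken from plants 21 days old, and each group was 1 single-colour oligonucleotide array of RNA pooled from 30 plants. All plants carried XVE, an activator that switches on its target promoter when 17-β-estradiol is applied, and all but the XVE control had in addition AMY3C-EY, a construct under its control; what AMY3C-EY encodes is not given in the sources used here. AMY3C-EY plants were harvested 1, 3 and 6 h after 20 µM estradiol was brushed onto the meristem, and untreated AMY3C-EY plants stood for 0 h. The 6 h controls were AMY3C-EY plants given DMSO, the solvent, and estradiol-treated plants that carried XVE alone. Plants grew in long days; the clock time of each harvest, the promoter driving XVE and the number of transgenic lines are not given in the sources used here.

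CCA1 and LHY are paired repressors that accumulate around dawn and hold down genes of the afternoon and evening, whose products in turn hold down CCA1 and LHY later in the day. The REVEILLE (RVE) proteins share their single MYB-like domain. RVE4 and RVE8 act the opposite way, as activators of afternoon and evening genes, and recruit the LNK proteins as coactivators, whereas RVE1, RVE2 and RVE7 belong to a branch tied to clock outputs. The probe sequences and the promoters or proteins of these genes were not used here.

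With 1 array per group there was no replicate, no residual degree of freedom and no test. Levels are log2 processed signals minus the log2 of each array's 75th percentile, differences are between such levels, and a gene counted as apart at 2-fold (1 on the log2 scale) if it was well above background on every array compared. An error after ± is the scanner software's own estimate for the spots, carried through to the difference; it covers no plants, extractions or arrays. Probes printed repeatedly on an array had a median SD between 0.15 and 0.21 (log2) across the 6 arrays. The 4 arrays of the estradiol time course shared a slide, and the 2 control arrays at 6 h shared another, and the 75th percentile ran between 341.6 (XVE) and 1435 (3 h). AMY3 stood at 1.34, 2.49, 3.55 and 3.88 at 0, 1, 3 and 6 h of estradiol, 2.53 with DMSO and 2.47 on the XVE array. Of 7 meristem markers 6 were well above background on all 6 arrays, and WUS, which marks the organizing centre, on none. All 6 mesophyll markers were well above background everywhere. Of the floral markers, PI and SEP3 were so on all 6 arrays, AG on 4 and AP3 on 1. Among root markers EXP7 and PLT1 were so on none, WER on 5, and COBL9 and SHR on all 6. In such pooled tissue, fewer cells of a type and less RNA per cell cannot be told apart.

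LHY, RVE1, CCA1, LNK1, LNK2 and LNK3 had lower levels on all 3 of the 6 h arrays than on the 3 early ones. So did RVE8, whose probe was not well above background on the XVE array. RVE4, RVE7 and RVE2 did not. LHY stood at 1.18, 2.86, 1.23 and -1.18 after 0, 1, 3 and 6 h of estradiol, at -1.69 with DMSO and at -1.98 in plants with XVE alone. All 3 of the 6 h arrays were thus below the 3 early ones, by a smallest difference of -2.36, or 5.15-fold. RVE1, which links the clock to auxin production, was at -1.50, 0.27 and -1.33 at 0, 1 and 3 h and at -4.35 at 6 h of estradiol, -4.05 with DMSO and -4.06 on the XVE array. Its smallest difference was -2.56. RVE1 and LHY lay farthest below the early arrays of 17996 genes well above background on all 6 arrays. The RVE1 value includes a probe not well above background on any 6 h array. From detected probes alone, those that passed on each array of a comparison, RVE1 was at -2.15 and LHY at -2.36. Under normexp, an alternative background correction, RVE1 was at -0.98 and 8 genes were at least 2-fold lower, so RVE1 did not keep its place.

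CCA1 was at -1.18, -0.35 and -1.64 at 0, 1 and 3 h and at -3.98 at 6 h of estradiol, -3.45 with DMSO and -2.86 on the XVE array, with a smallest difference of -1.21. LNK3, a smaller relative of LNK1 and LNK2, was at 0.38, 1.31 and 0.01 on the early arrays and at -2.47, -1.96 and -1.35 on the estradiol, DMSO and XVE arrays at 6 h, with a smallest difference of -1.36. The groups of early and 6 h arrays did not overlap for either gene. In this comparison 4 of the 8 members well above background on all 6 arrays (RVE1, LHY, LNK3 and CCA1) were at least 2-fold lower on each 6 h array than on each early one, and none was higher. The same held for 0.117% of all genes tested, and 0.306% were at least 2-fold higher. With the normexp background correction CCA1 (-0.39) and RVE1 (-0.98) were within 2-fold here.

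LNK1 and LNK2, the coactivators of RVE4 and RVE8, were lower at 6 h by smaller amounts. LNK1 was at -1.50, -1.64 and -1.74 at 0, 1 and 3 h and at -2.73, -3.30 and -2.80 on the estradiol, DMSO and XVE arrays at 6 h, a smallest difference of -0.99. This was -0.63 from detected probes alone and -0.04 with normexp. LNK2 was at 2.06, 2.51 and 1.48, and at 0.53, 0.45 and 0.82 in the same order, a smallest difference of -0.66. With these, 6 of 8 members lay lower in all 9 pairs of a 6 h and an early array, as did 7.69% of all genes, and none lay higher in all 9, as 8.49% of all genes did. RVE8 was at -2.15, -2.09 and -2.70 at 0, 1 and 3 h. At 6 h it was at -4.01 with estradiol, -4.13 with DMSO and -4.19 on the XVE array, where its probe was not well above background. Its smallest difference was -1.31, and it was not counted among the 8 because of the dim XVE spot.

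**Figure D1:**
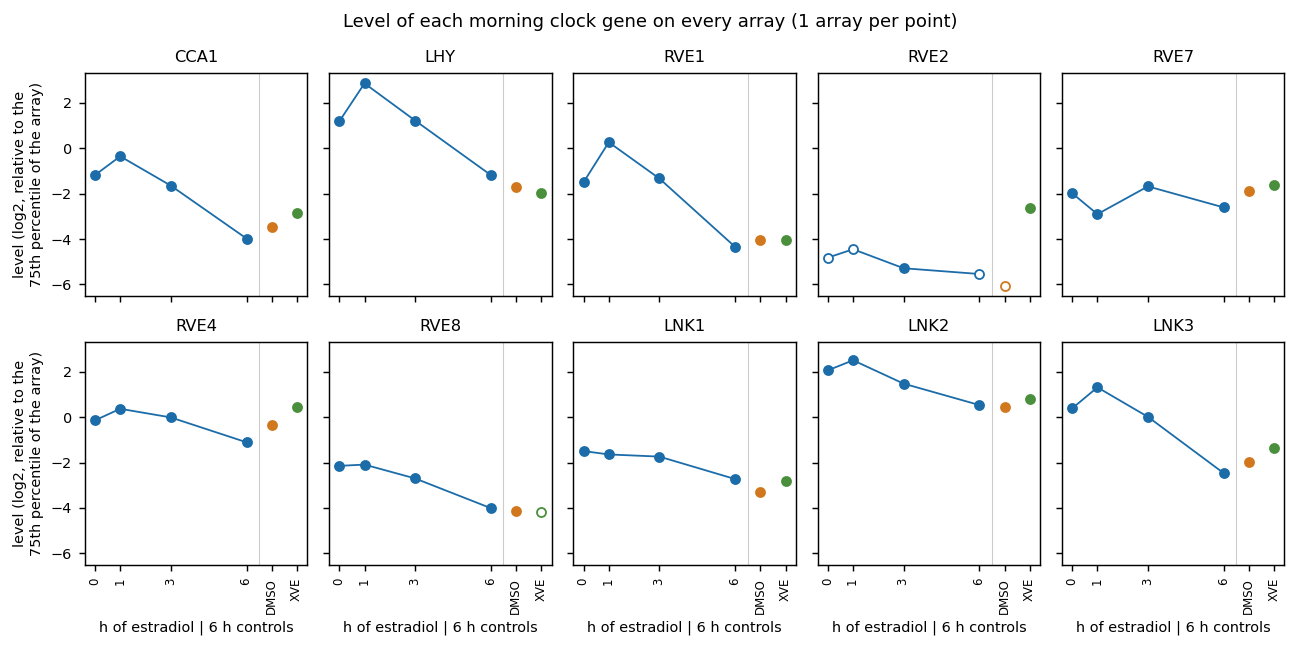
Level of each gene on every array (y axis, log2 scaled to each array's 75th percentile) against hours of estradiol in AMY3C-EY plants (blue, joined), with the 6 h DMSO (orange) and XVE (green) controls at the right; each point is 1 array and open points are not well above background. LHY, CCA1, RVE1 and LNK3 are lower on the 3 arrays at 6 h than on the 3 early arrays. RVE4 and RVE7 are not, and RVE2 has its highest level on the XVE array.

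RVE4 and RVE7 did not share this pattern. RVE4 stood at -0.14, 0.37 and -0.01 at 0, 1 and 3 h and at -1.11 at 6 h of estradiol, but at -0.34 with DMSO and 0.43 on the XVE array, its highest value. RVE7, first described as an early phytochrome-responsive gene, was at -1.98, -2.90 and -1.68 at 0, 1 and 3 h, -2.61 at 6 h of estradiol, -1.88 with DMSO and -1.61 on the XVE array. For both genes the early and the 6 h arrays overlapped. At 1 h RVE7 was below 0 h by -0.92 ± 0.20. Across the 6 arrays its Pearson correlation with the mean profile of the 8 members well above background everywhere was -0.24 and that of RVE4 0.60, against 0.92 to 1.00 for the other 6; this describes 6 arrays that the members share, and each gene is part of the mean.

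Like RVE4 and RVE7, RVE2, also known as CIRCADIAN 1, had its highest level on the XVE array. Its single probe was at -2.65 there, with a processed signal of 54.5, and at -4.82, -4.45, -5.29 and -5.54 at 0, 1, 3 and 6 h of estradiol and -6.08 with DMSO. The probe was well above background on the XVE and 3 h arrays only, and the 3 h array had the highest 75th percentile. RVE2 was at least 5.60-fold lower at 6 h of estradiol in AMY3C-EY plants than on the XVE array. On the XVE array it was at least 3.24-fold higher than at 0 h and at least 3.78-fold higher than with DMSO, each bound taken against the lowest signal well above background on the dimmer array. The XVE array was the only 1 of its line.

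In the first hour after estradiol, 2 members were at least 2-fold higher than at 0 h: RVE1, by 1.76 ± 0.15 (3.40-fold), and LHY, by 1.68 ± 0.20 (3.20-fold), with none at least 2-fold lower among 9 tested. Of all 18553 genes tested, 6.31% were at least 2-fold higher and 6.38% lower. LNK3 (0.93), CCA1 (0.83), RVE4 (0.51), LNK2 (0.44) and RVE8 (0.06) were above 0 h by less than 2-fold, and LNK1 (-0.15) and RVE7 (-0.92) below. The median of the 9 was 0.51, against -0.08 over all genes tested. CCA1, LHY, RVE1, LNK2 and LNK3 had their highest level on the 1 h array. So did RVE8, but by only 0.06 ± 0.22 over 0 h. The share of all genes highest on that array was not computed. No solvent or XVE plants were sampled at 1 h or 3 h, so estradiol, construct, brushing and elapsed time cannot be told apart there.

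At 3 h none of 9 members was at least 2-fold apart from 0 h in either direction. Of all genes, 2.38% were higher and 5.0% lower. With shares this small, finding none among 9 says little about the members. Their differences lay between -0.59 (LNK2) and 0.30 (RVE7), with a median of -0.24 against -0.05 over all genes. Between 1 h and 3 h 5 members were at least 2-fold lower, against 5.18% of all genes, namely LHY (-1.64), RVE1 (-1.60), LNK3 (-1.30), CCA1 (-1.29) and LNK2 (-1.03). RVE7 was the 1 that was at least 2-fold higher (1.22), against 2.37% of all genes.

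The change between 3 h and 6 h of estradiol was larger. At 6 h 6 of 9 members lay lower than at 3 h by 2-fold or more, against 1.58% of all genes, and none was higher, against 2.73%. RVE1 was lower by -3.02 (8.09-fold), LNK3 by -2.48 (5.60-fold), LHY by -2.41 (5.30-fold) and CCA1 by -2.34 (5.05-fold). From detected probes alone RVE1 was lower by -2.44 (5.42-fold) and CCA1 by -1.97 (3.91-fold). RVE8 (-1.31) and RVE4 (-1.10) followed, with LNK1 (-0.99), LNK2 (-0.94) and RVE7 (-0.93) just inside 2-fold.

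Set against 0 h on the same slide, 7 of 9 members were at least 2-fold lower at 6 h of estradiol and none higher, where 2.84% of all genes were lower and 2.61% higher. LNK3 was lower by -2.85 ± 0.21, RVE1 by -2.85 ± 0.22 and CCA1 by -2.80 ± 0.26. The RVE1 and CCA1 values include dim probes: from detected probes alone they were -2.15 and -2.43, and with normexp -1.64 and -1.79. LHY was lower by -2.36 ± 0.20, RVE8 by -1.86 ± 0.25, LNK2 by -1.53 ± 0.14 and LNK1 by -1.24 ± 0.17, while RVE4 (-0.97 ± 0.15) and RVE7 (-0.63 ± 0.16) stayed within 2-fold. The median was -1.86, against -0.06 over all genes.

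The DMSO array at 6 h gave nearly the same picture. No untreated plants were sampled at 6 h, so brushing, solvent, elapsed time and slide cannot be told apart in its difference from 0 h. With DMSO at 6 h 7 of 9 members lay lower than at 0 h by 2-fold or more, where 4.07% of all genes were lower, and none was higher, against 4.61%. LHY (-2.87 ± 0.21) lay lowest, followed by RVE1 (-2.56 ± 0.23), LNK3 (-2.34 ± 0.21), CCA1 (-2.27 ± 0.18), RVE8 (-1.98 ± 0.30), LNK1 (-1.81 ± 0.32) and LNK2 (-1.62 ± 0.14). The RVE1, CCA1 and LNK1 means include dim probes: from detected probes alone they were -2.16, -2.40 and -1.01. The RVE1 difference is then smaller than those of CCA1 and LNK3. RVE4 (-0.20) and RVE7 (0.10) were close to 0 h. In plants with XVE alone 6 of 8 members were at least 2-fold lower at 6 h than at 0 h, against 7.25% of all genes, and none was higher, also against 7.25%. These were LHY (-3.16 ± 0.21), RVE1 (-2.56 ± 0.28), LNK3 (-1.73 ± 0.21), CCA1 (-1.68 ± 0.15), LNK1 (-1.30 ± 0.25) and LNK2 (-1.24 ± 0.14). On the XVE array detected probes alone gave -2.21 for RVE1 and -1.02 for LNK1. RVE8, dim there, was at least 3.84-fold lower. RVE4 (0.57) and RVE7 (0.37) lay above 0 h. All 3 comparisons share the 0 h array, and those of the DMSO and XVE arrays also cross slides, whereas the estradiol values do not. With the normexp background correction CCA1 (-0.87) and LNK1 (-0.51) were within 2-fold of 0 h on the XVE array, and RVE1 was only just past it there. Of 6 mesophyll markers, 5 were at least 2-fold higher on the XVE array than at 0 h (median 1.33), and their part in these differences was not tested.

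**Figure D2:**
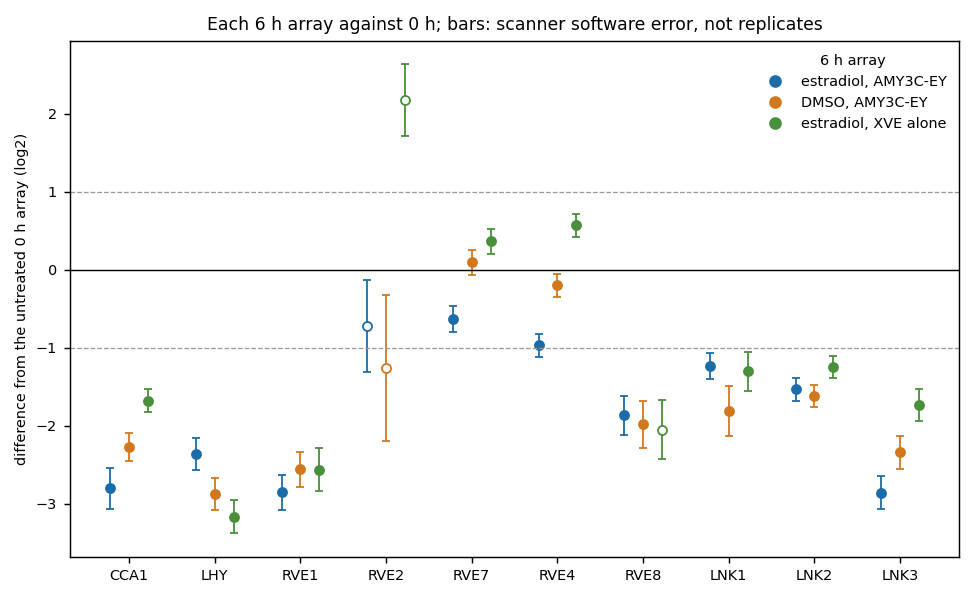
Difference of each 6 h array from the untreated 0 h array (y axis, log2) for each gene, with the scanner software's error as bars; dashed lines mark 2-fold and open points are genes not well above background on both arrays. LHY, CCA1, RVE1, LNK1, LNK2 and LNK3 lie below the lower line on all 3 arrays, RVE4 and RVE7 between the lines.

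At 6 h in AMY3C-EY plants, none of 9 members was at least 2-fold apart between estradiol and DMSO. Over all genes 1.51% were higher and 2.42% lower with estradiol. With shares this small, finding none among 9 says little about the members. The arrays lay on different slides, so treatment and slide cannot be told apart here. RVE4 (-1.11 with estradiol against -0.34 with DMSO) and RVE7 (-2.61 against -1.88) were the lowest, by -0.77 ± 0.15 and -0.73 ± 0.16, with both probes of each gene below 0. CCA1 (-0.53 ± 0.29), LNK3 (-0.52 ± 0.21) and RVE1 (-0.29 ± 0.28) were also below 0, and LNK1 (0.57 ± 0.32), LHY (0.51 ± 0.21), RVE8 (0.12 ± 0.32) and LNK2 (0.09 ± 0.14) above. From detected probes alone CCA1 was at -0.03, RVE1 at 0.01 and LNK1 at -0.44. Mesophyll markers were lower too, all 6 below 0 and 3 of them by at least 2-fold (median -0.91). All 10 reference genes were below 0 (median -0.28). Of 3 root markers tested, SHR was lower (3.88 with estradiol against 6.66 with DMSO) and 2 were above 0. The part of these markers and reference genes in the result was not tested. The median was -0.29, against -0.03 over all genes.

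Against plants with XVE alone, 3 of 8 members were at least 2-fold lower in AMY3C-EY plants at 6 h of estradiol, and none higher. The background was 5.22% lower and 3.70% higher. RVE4 was at -1.11 in AMY3C-EY plants against 0.43 with XVE alone, a difference of -1.54 ± 0.15, and both of its probes gave it (-1.65 and -1.43). LNK3 was at -2.47 against -1.35, lower by -1.12 ± 0.21. CCA1 was at -3.98 against -2.86 (-1.12 ± 0.27), but its call rested on a probe not well above background at 6 h of estradiol. It was -0.24 from detected probes alone, -0.94 with the brightest probe and -0.91 with normexp. RVE7 was at -0.99 ± 0.16, LNK2 at -0.29 ± 0.14, RVE1 at -0.29 ± 0.32 and LNK1 at 0.07 ± 0.25, and LHY lay higher, by 0.80 ± 0.22. Leaf mesophyll markers moved with this comparison: 5 of 6 were at least 2-fold lower in AMY3C-EY plants. The mean level of the 6 was 3.74 against 5.65 on the XVE array, and 2 of 10 reference genes were at least 2-fold lower too. Of 2 root markers tested, each was below 0, and SHR (3.88 against 5.57) was at least 2-fold lower. The part of these markers and reference genes in the result was not tested, and slide and line cannot be told apart here. Within the second slide, the XVE array stood above the DMSO array by 0.77 for RVE4, 0.61 for LNK3 and 0.59 for CCA1 (0.20 from detected probes alone), and no tested member was 2-fold apart, against 2.01% of all genes higher and 2.06% lower.

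**Figure D3:**
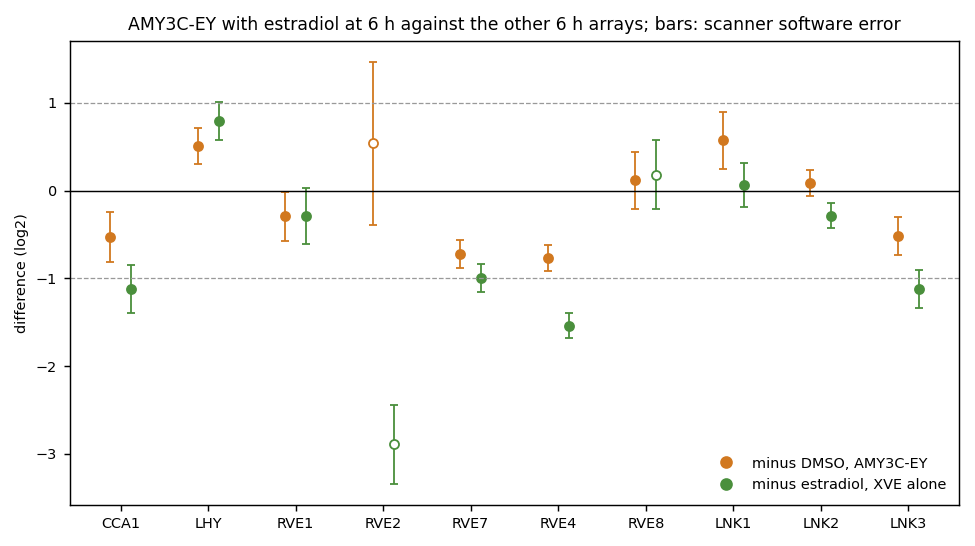
Level at 6 h of estradiol in AMY3C-EY plants minus the level on the DMSO array (orange) or on the array with XVE alone (green), in log2, with the scanner software's error as bars; dashed lines mark 2-fold and open points are genes not well above background on both arrays. No filled orange point passes 2-fold, and RVE4, LNK3 and CCA1 do against XVE alone, CCA1 through a dim probe.

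Probes of a gene did not always give the same size of change. CCA1 has 3 probes. At 6 h of estradiol against 0 h, A_84_P19241 was lower by -3.63, A_84_P847314 by -1.22 and A_84_P847991, which fell below the background limit at 6 h, by -3.54. The same probes gave 1.47, 0.55 and 0.47 at 1 h, so CCA1 was at least 2-fold higher then by A_84_P19241 alone. Their smallest differences between 6 h and early arrays were -2.09, -0.90 and -0.19. For estradiol against DMSO at 6 h, the 2 CCA1 probes well above background lay on opposite sides of 0 (-0.78 and 0.72). For LNK2, A_84_P52840 was lower by -2.53 at 6 h of estradiol and A_84_P820018 by -0.53. On the DMSO array these were -2.58 and -0.65, and on the XVE array -1.87 and -0.62. Averaging therefore makes the LNK2 value smaller than that of its more responsive probe. The 2 probes of RVE1 gave -2.15 and -3.55, of LNK1 -1.45 and -1.02, of RVE4 -1.09 and -0.84, and of RVE7 -0.83 and -0.42, with 1 sign in each gene. The larger RVE1 value came from a probe not well above background on any 6 h array. For LNK1, A_84_P835531 was not well above background on the DMSO and XVE arrays, and A_84_P137629 alone gave -1.01 with DMSO and -1.02 with XVE alone against 0 h. For estradiol against DMSO this probe gave -0.44, while the mean with the dim probe was 0.57. LHY, RVE2, RVE8 and LNK3 have 1 probe each. Transcript isoforms or positions that the probes read were not used here.

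**Figure D4:**
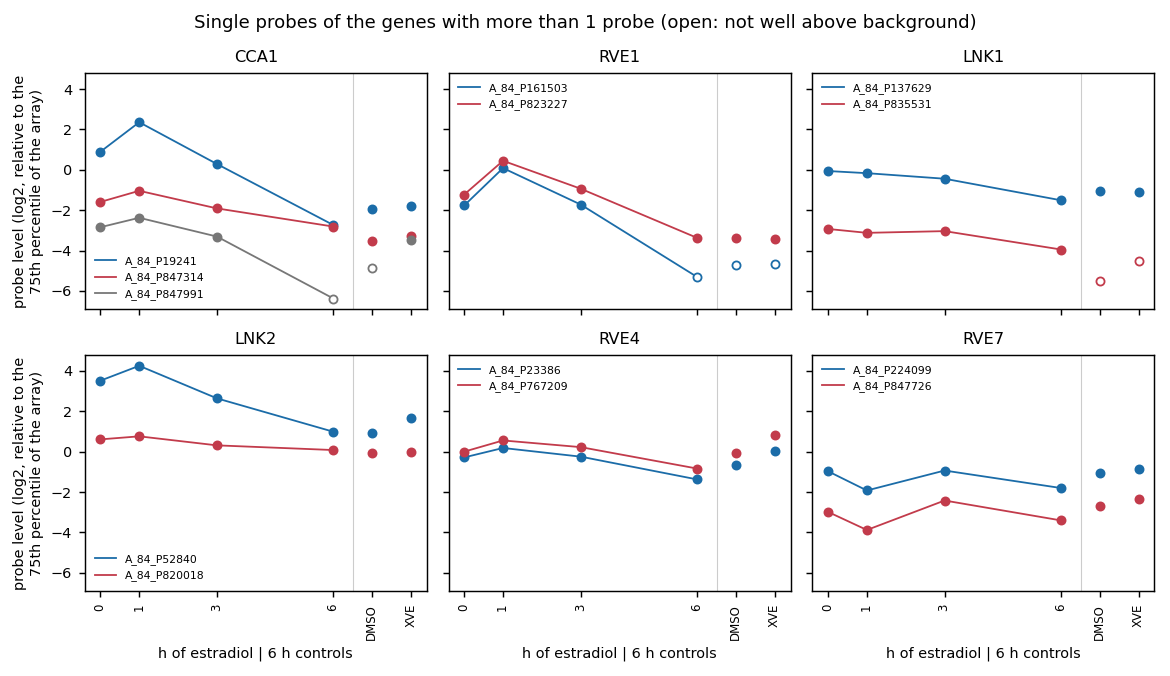
Levels of the single probes (y axis, log2 scaled to each array's 75th percentile) of the 6 genes with more than 1 probe, against hours of estradiol and for the 6 h DMSO and XVE arrays; open points are not well above background. The probes of CCA1 and of LNK2 are all lower at 6 h of estradiol than at 0 h but by different amounts. Those of RVE4 and of RVE7 are also all lower then, but with DMSO the RVE7 probes lie on opposite sides of 0 h (0.28 and -0.08).

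Of 5 relatives outside the set, 4 were tested at 1 h against 0 h. Of these, 3 were at least 2-fold higher and none lower, against 6.31% and 6.38% of all genes. At 6 h the relatives differed among themselves. LNK4, the remaining LNK gene, was at 0.99, 2.83 and 1.02 at 0, 1 and 3 h and at -1.73, -1.02 and -1.07 on the estradiol, DMSO and XVE arrays at 6 h, a smallest difference of -2.02 between 6 h and early arrays. RVE6, an activator that acts redundantly with RVE4 and RVE8, stood at -3.39, -2.25, -2.53 and -3.33 after 0, 1, 3 and 6 h of estradiol, and at -2.83 with DMSO and -2.81 on the XVE array, and RVE5 had a range of 0.61 over the 6 arrays. RVE3 was at -2.84, -1.83 and -2.89 on the early arrays and -4.45 at 6 h of estradiol, and not well above background on the other 6 h arrays.

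Genes of the afternoon and evening, which CCA1 and LHY are known to repress and RVE4 and RVE8 to activate, were read from a list of 14 PRR, evening and light-input genes. Against 0 h 8 of 13 tested were at least 2-fold higher at 6 h of estradiol and 1, the morning repressor PRR9, lower (-4.34 at 6 h against -2.30 at 0 h), where 2.61% of all genes were higher and 2.84% lower. With DMSO 5 were higher and 1 lower, against 4.61% and 4.07% of all genes. With XVE alone 5 were higher and 0 lower, against 7.25% each way. PRR5 was at 1.54 at 6 h of estradiol, 1.75 with DMSO and 1.79 with XVE alone, against -2.08 at 0 h, and TOC1 was at 1.02, -0.11 and 0.13, against -0.38. Among outputs, the RNA-binding protein gene GRP7 was at 3.48, 3.10 and 3.18, against -0.54. Known regulators of the morning genes, such as CHE, TCP20 and FHY3, were read from a list of 10. None was at least 2-fold apart from 0 h on any 6 h array, which says little beside the shares of all genes above. At 1 h TCP20 (1.36) and HY5 (1.15) were at least 2-fold higher than at 0 h, against 6.31% of all genes. CHE was lower, just past 2-fold, against 6.38%. The 10 reference genes had a median difference from 0 h of -0.02 at 6 h of estradiol, 0.34 with DMSO and 0.35 with XVE alone.

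**Figure D5:**
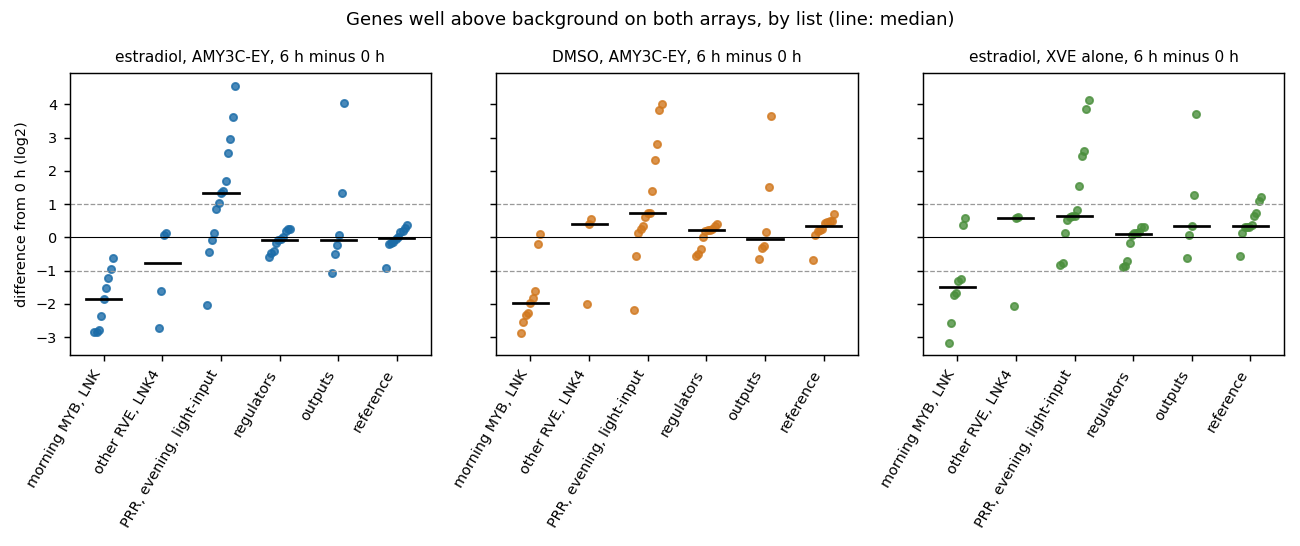
Difference from the untreated 0 h array (y axis, log2) on the 6 h estradiol, DMSO and XVE arrays for genes well above background on both arrays, by gene list; each point is 1 gene, the bar its list's median and dashed lines mark 2-fold. The morning genes have medians of -1.86, -1.98 and -1.49, and the list with the PRR and evening genes medians of 1.32, 0.74 and 0.66.

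The genes whose levels over the 6 arrays were most like the mean profile of the 8 members, among 1109 genes with a range of at least 2 (log2), were COL2 and COL1, 2 CONSTANS-like genes (Pearson r 0.98 and 0.96), LNK4 (0.98), the granule-bound starch synthase gene GBSS1 (0.97), the B-box gene BBX16 (0.96), the nucleobase transporter gene NCS1 (0.96), the sugar transporter gene SWEET2 (0.96) and AT5G16200 (0.96). COL2, for example, was at 0.97, 1.09 and 0.14 at 0, 1 and 3 h and at -3.14, -2.61 and -1.91 on the estradiol, DMSO and XVE arrays at 6 h. The most opposite were AT1G34400 (-0.999), AT4G26670 (-0.99), AT3G44950 (-0.99), AT3G25960 (-0.99) and AT1G56300 (-0.99). These values rest on 6 arrays.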

How the data were processed

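Total RNA of 6 pools was hybridised to 6 single-colour arrays. Per the file headers, the processed intensity in the authors' deposited scanner files has had background subtracted, spatial trends included, and carries no scaling between arrays; the software is Agilent Feature Extraction 10.5.1.1, per the submitters' processing notes. The deposited files also hold median spot and background intensities and an error per spot. The authors' deposited table holds log2 values without a stated scale: on every array, 100% of its probes lay within 0.01 of 1 constant offset from the values used here, so it nearly repeats them, and its column medians ran from -2.142 to -2.079.

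Here the log2 of each processed intensity was scaled to its array's 75th percentile over the 43803 spots that are not controls. Outlier-flagged spots were dropped and spots of a probe averaged. No spot was saturated. Loci were assigned by RefSeq accession, version dropped, from a TAIR10.1 gene table: 34285 matched 1 locus, 9318 none and 0 several. Gene levels average those probes that were well above background somewhere among the 6 arrays. For a gene to pass on an array, 1 such probe there was enough, so a mean can include dim probes.

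Samples were grouped by source name, and 8 comparisons were made without a test, since each group is 1 array. The members and lists were chosen with earlier results of these data known. All members are named with their values; other genes come from lists of clock genes, relatives, regulators, outputs, reference genes and tissue markers, and AMY3 was added after the data were seen. The genes most like the members were ranked by Pearson correlation over 6 arrays with the mean of the centred member profiles. Alternatives were quantile scaling, cyclic loess, the authors' table, normexp (offset 50), keeping dim probes, requiring every array to pass, the brightest probe, a 1.5-fold threshold, leaving out arrays and, chosen after seeing the data, averaging only detected probes. Normexp used median signals. The computation was tested on simulated data. R 4.3.3 with limma 3.58.1 and Python 3.11.15 were used.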

Additional observations from a re-analysis of the deposited data

How the results depend on the processing

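Of 547 differences of single members recomputed under 8 alternatives, 537 kept their side of 2-fold, 7 were no longer and 3 were newly at least 2-fold apart, and 0 reversed. Part of this was fixed in advance: keeping dim probes or requiring every array to pass changed no member's value. The authors' table nearly repeats the values used here, and the brightest probe alters nothing where a gene has a single probe. Sign changes within 2-fold were not counted as reversed: LNK1 for estradiol against DMSO ran from -0.44 to 0.57. The number of members at least 2-fold apart moved by more than 1.5 times in few cases. With the normexp background correction it was 2 in place of 4 for all 6 h arrays against the early arrays, with CCA1 at -0.39 and RVE1 at -0.98. With a 1.5-fold threshold it was 5 in place of 2 at 1 h against 0 h, 1 in place of 0 at 3 h, 5 in place of 3 for AMY3C-EY against XVE and 2 in place of 0 for estradiol against DMSO. Leaving out each of the 6 arrays in turn gave 4 to 6 members for all 6 h against early arrays. In that comparison LNK1 was at -1.04 under quantile scaling, -0.63 with the brightest probe and -0.04 with normexp, against -0.99. RVE7 against XVE was at -1.08 under cyclic loess. Averaging only detected probes, an alternative chosen after seeing the data, kept every count of members but that against XVE, which was 2 in place of 3, with CCA1 at -0.24. No other alternative run moved a count by more than 1.5 times.

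Normexp moved the median difference of all genes from 0 h to -0.19 at 3 h and -0.13 at 6 h of estradiol, against -0.05 and -0.06. Of all genes at least 2-fold apart at 3 h, 15.4% were then higher, against 45.4% under quantile scaling and 32.2% on the scale used here. At 1 h cyclic loess gave 60.6%, against 49.7%. Dim signal limits RVE2 on 4 arrays and RVE8 on the XVE array. No paired analysis was possible because each group is 1 array.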
